A study of Homo sapiens with 42 samples.

Results

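The genes described here are 38 interferon-stimulated genes, taken by name from the programme that cells switch on when interferon binds its receptor. All 38 have a row in the deposited table of 60240 genes. All 38 also passed the filter on low values (10 or more in 3 or more of the 30 libraries), as did 22168 genes in all. Cell lines of human acute myeloid leukaemia were given decitabine or its solvent DMSO, and their total RNA was sequenced with strand kept. Decitabine is a cytidine analogue that is built into DNA and traps DNA methyltransferases there. The lines with a column in the table are SKM-1, OCI-AML3, KG-1, MOLM-14 and MOLM-13, all given as wild type in genotype. Each line has 3 libraries with decitabine, at 100 nM on each of days 0, 1 and 2, and 3 with DMSO, and RNA was taken at 72 hours. MOLM-13 and MOLM-14 are known as sister lines from 1 patient. Each line is 1 established culture, and the labels do not say whether its replicates are separate cultures, so that p-values reflect how far these libraries scatter, which may be technical.

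Interferons are secreted proteins that act through receptors coupled to the kinases JAK1 and TYK2. Signalling leads to a complex called ISGF3, in which STAT2 and IRF9 take part and which binds interferon-stimulated response elements in promoters. The genes switched on in this way block steps of virus growth: IFITM proteins and tetherin act at membranes, OAS enzymes and IFIT proteins act on foreign RNA, MX proteins are GTPases that stop incoming viruses, and ISG15 is a ubiquitin-like tag. Inhibitors of DNA methyltransferases are known for inducing such genes in some tumour cells.

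The values are normalised counts, here compared as log2(value + 1), so that a fold change understates the change of a low gene. A difference is decitabine minus DMSO on that scale with its standard error (SE). Adjusted p values come from limma, Benjamini-Hochberg adjusted over all 22168 genes, and a call means an adjusted p below 0.05. Counts from other fits, or at an unadjusted p, are given without the share of all genes and cannot be set against it. The panel mean is the mean of the 5 lines' differences. Estimated depth ranged from 1970000 to 75000000 reads in genes. In OCI-AML3, MOLM-14 and KG-1 the second replicate of each arm was shallow, with 1970000 to 4590000 reads, and 1 read was worth 4.30 to 10.3 normalised counts in these 6 libraries against 0.279 to 1.38 in the other 24. Per-library values below are in the order of replicates 1, 2 and 3. All 12 markers fixed for myeloid leukaemia lines passed the filter. Markers of other cell types were also detected. Of the epithelial markers KRT5 was at 0 in every library, while KRT8 reached 700.4 and EPCAM 574. Of the plasmacytoid dendritic cell markers CLEC4C reached at most 4.29, while IRF8 reached 13408 and TCF4 3717. The lymphoid markers NCAM1 and PAX5 reached 6908 and 4065.

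Decitabine raised 21 of the 38 genes and lowered 2 on the panel mean. Among all genes tested 12% were called higher and 7.52% lower. The median difference of the 38 was 0.26 against 0.06 for all genes. The genes that rose most were LGALS3BP, IFI27, IFITM1, IFITM3, IRF7, IFI6, IFIT2 and IRF9, and the 2 that fell were CMPK2 and USP18. A difference above 0 in all 5 lines was found for 8 of the 38 (9.53% of all genes) and one below 0 in all 5 for CMPK2 and USP18 (6.41%). The 8 were LGALS3BP, IFI27, IFITM3, IFIT2, IRF9, IFIT5, HERC5 and GBP1. Under quantile normalisation, which lowers the median of all genes from 0.06 to -0.03, 17 of the 38 were called higher and 2 lower. In bulk RNA, a change in the share of cells that express a gene and a change in the RNA per cell cannot be told apart. The number of calls depended on the lines included: without SKM-1 the panel mean called 12 genes higher, and OCI-AML3, MOLM-14 and KG-1 fitted alone called 5. These fits have fewer libraries, so that fewer calls need not mean smaller differences. In those 3 lines IFITM1 differed by 1.58 and was not called (limma adjusted p = 0.14), against a called 1.11 over all 5. Without the 6 shallow libraries the counts were again 21 and 2, but not of the same genes. IFITM1 (limma adjusted p = 0.19) and IFI35 (0.15) lost their calls there, and GBP1 (0.0025) and EPSTI1 (0.0038) gained one.

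**Figure D1:**
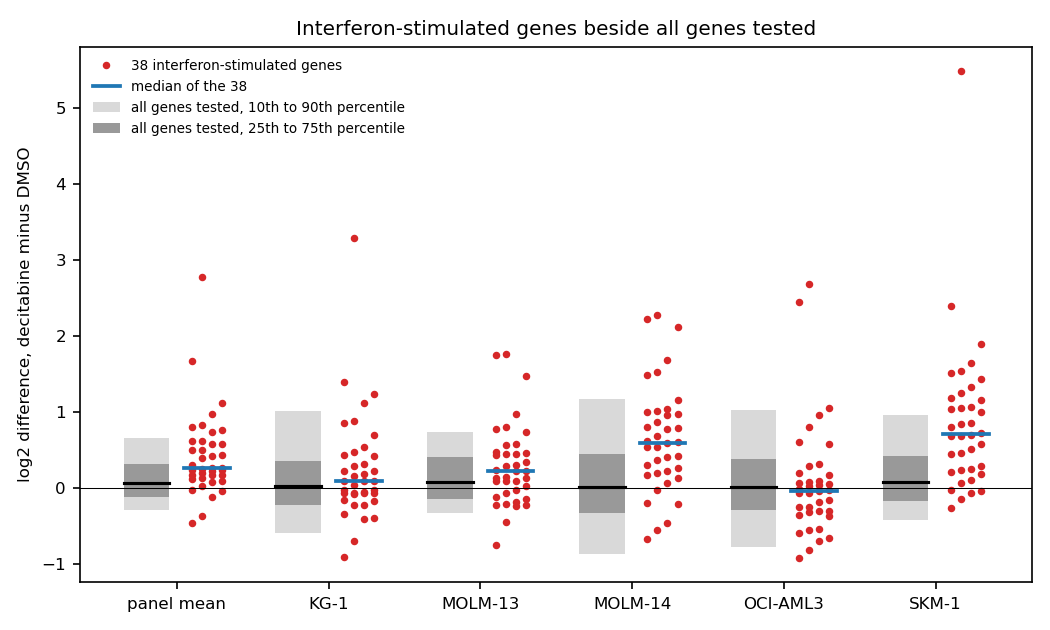
Log2 difference between decitabine and DMSO for the 38 interferon-stimulated genes (red points, blue line at their median) beside all genes tested (grey bars, black line at the median), on the panel mean and in each of 5 lines. The median of the 38 was 0.71 in SKM-1 and 0.60 in MOLM-14, and -0.04 in OCI-AML3.

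LGALS3BP, which encodes a secreted glycoprotein that binds galectins, rose by far the most on the panel mean, by 2.77 (SE 0.15, adjusted p = 1.6e-12). In KG-1, LGALS3BP was at 4.08, 11.4 and 4.37 with DMSO and at 72.0, 69.9 and 59.8 with decitabine. In MOLM-13, LGALS3BP was at 14.3, 8.79 and 21.0 with DMSO and at 64.5, 49.6 and 37.9 with decitabine. In MOLM-14, LGALS3BP was at 16.3, 8.60 and 16.9 with DMSO and at 66.7, 72.5 and 67.1 with decitabine. These 3 lines had a low DMSO level and no decitabine library as low as any DMSO library. In OCI-AML3, LGALS3BP was at 605, 634 and 552 with DMSO and at 1147, 1277 and 1272 with decitabine. In SKM-1, LGALS3BP was at 4.32, 9.54 and 10.1 with DMSO and at 363, 426 and 352 with decitabine. LGALS3BP was the 1 gene of the 38 whose decitabine libraries all lay above the DMSO libraries in all 5 lines. The difference was 5.48 (SE 0.34, adjusted p = 2.1e-11) in SKM-1, a 44.6-fold change on the value + 1 scale. In the SKM-1 DMSO libraries 1 read was worth 0.319, 0.325 and 0.283. The difference was 3.29 (SE 0.34, adjusted p = 4.9e-07) in KG-1, 2.28 (SE 0.34, adjusted p = 6.4e-05) in MOLM-14 and 1.76 (SE 0.34, adjusted p = 0.0035) in MOLM-13. In OCI-AML3, where the DMSO level was highest, it was 1.05 (SE 0.34, adjusted p = 0.075) and was not called. The F-test for unequal responses among the lines gave an adjusted p of 3.9e-06.

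IFI27, a small hydrophobic membrane protein, rose on the panel mean by 1.67 (SE 0.28, adjusted p = 9.4e-05). In OCI-AML3, IFI27 was at 248, 377 and 238 with DMSO and at 1701, 1815 and 1168 with decitabine. In MOLM-13, IFI27 was at 12.9, 13.9 and 14.9 with DMSO and at 74.3, 39.9 and 40.1 with decitabine. In MOLM-14, IFI27 was at 3.23, 0 and 1.96 with DMSO and at 5.53, 25.4 and 6.39 with decitabine. The arms did not overlap in these 3 lines. In MOLM-14 the gene was at or near 0 with DMSO and between 5.53 and 25.4 with decitabine, highest in the shallow replicate 2. In KG-1, IFI27 was at 10.7, 25.9 and 3.86 with DMSO and at 15.4, 21.7 and 24.8 with decitabine. In SKM-1, IFI27 was at 3.16, 2.08 and 0.246 with DMSO and at 1.62, 6.28 and 6.18 with decitabine. Both arms overlapped in KG-1 and SKM-1. The difference in OCI-AML3 was 2.44 (SE 0.62, adjusted p = 0.020), and leaving out any one of 4 of its 6 libraries ended that call, with an adjusted p of up to 0.066. In MOLM-14 it was 2.22 (SE 0.62, adjusted p = 0.022), and leaving out the shallow replicate 2 of either arm ended that call, with an adjusted p of up to 0.15. Without the 6 shallow libraries the MOLM-14 difference was 0.97 (adjusted p = 0.28).

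The promoters of the first 6 of the most raised genes with a RefSeq window are shown, because the response element sits there in all but one. RefSeq promoter windows (GRCh38.p14, 250 bases before the start and 50 after) were matched by symbol for 31 of the 38 genes and searched on both strands for GAAANNGAAA, the core of the interferon-stimulated response element. The core was in a window of 22 of the 31 genes (71%), against 4.38% of 27305 genes in the table, and 12 of the 31 had a window with 2 or more, against 0.311% of all genes. Cores that overlap were counted separately. CG is the dinucleotide that DNA methyltransferases methylate, and its median number was 7.0 in the windows of these genes and 14.0 in all windows. In the sequences, 5′ to 3′ on each gene's strand, capitals mark the core on either strand. LGALS3BP is at chr17:78979874-78980173 (minus strand) and has 1 core. IFI27 is at chr14:94110486-94110785 (plus strand) with 2 cores, IFITM1 at chr11:313790-314089 (plus) with 2, IFITM3 at chr11:320811-321110 (minus) with 2 and IFI6 at chr1:27672143-27672442 (minus) with 3. IRF9, at chr14:24161015-24161314 (plus), has none in this window.
LGALS3BP: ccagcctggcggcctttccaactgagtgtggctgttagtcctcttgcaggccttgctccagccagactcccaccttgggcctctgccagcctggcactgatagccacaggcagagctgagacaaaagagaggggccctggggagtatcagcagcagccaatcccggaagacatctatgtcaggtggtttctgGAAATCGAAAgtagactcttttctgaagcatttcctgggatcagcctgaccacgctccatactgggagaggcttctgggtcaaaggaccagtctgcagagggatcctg
IFI27: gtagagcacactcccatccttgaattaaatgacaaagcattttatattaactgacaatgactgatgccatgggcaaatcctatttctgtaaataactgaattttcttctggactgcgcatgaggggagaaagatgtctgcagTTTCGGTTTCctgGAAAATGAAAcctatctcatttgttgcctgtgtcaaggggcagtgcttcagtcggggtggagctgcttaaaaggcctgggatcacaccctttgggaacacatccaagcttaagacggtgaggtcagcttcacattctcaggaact
IFITM1: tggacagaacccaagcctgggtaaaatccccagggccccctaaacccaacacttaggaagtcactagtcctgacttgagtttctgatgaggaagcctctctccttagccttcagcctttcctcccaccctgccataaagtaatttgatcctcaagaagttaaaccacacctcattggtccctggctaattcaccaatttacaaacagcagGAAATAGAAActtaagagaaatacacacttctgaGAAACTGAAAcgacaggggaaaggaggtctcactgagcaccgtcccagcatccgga
IFITM3: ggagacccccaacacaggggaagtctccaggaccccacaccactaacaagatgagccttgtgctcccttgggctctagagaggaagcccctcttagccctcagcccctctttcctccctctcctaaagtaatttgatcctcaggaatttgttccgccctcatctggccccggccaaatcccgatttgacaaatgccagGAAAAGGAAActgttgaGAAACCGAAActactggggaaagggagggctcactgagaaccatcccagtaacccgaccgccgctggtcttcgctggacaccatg
IFI6: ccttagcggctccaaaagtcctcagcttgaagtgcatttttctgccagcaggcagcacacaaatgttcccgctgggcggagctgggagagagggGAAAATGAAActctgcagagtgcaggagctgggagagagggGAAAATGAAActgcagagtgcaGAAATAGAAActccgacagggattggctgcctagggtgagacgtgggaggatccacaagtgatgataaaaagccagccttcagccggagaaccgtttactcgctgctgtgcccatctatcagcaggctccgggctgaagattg
IRF9: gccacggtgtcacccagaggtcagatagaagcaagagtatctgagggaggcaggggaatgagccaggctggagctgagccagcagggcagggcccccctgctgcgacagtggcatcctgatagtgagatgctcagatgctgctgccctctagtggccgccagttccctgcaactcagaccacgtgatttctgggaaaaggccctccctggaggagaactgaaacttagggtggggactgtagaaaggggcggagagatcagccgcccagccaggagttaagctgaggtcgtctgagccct
LGALS3BP and IFI27 had 4 CG each in the windows shown, IFITM1 had 3, IFITM3 had 8, IFI6 had 9 and IRF9 had 7. CMPK2, 1 of the 2 genes that fell, had no core in any of its 3 windows, and USP18, the other, had no window in the table. The core was likewise not found for STAT2, UBE2L6, SAMD9L and IFI35, which were called higher on the panel mean, as was IRF9. It was also not found for HERC6, OAS1 and XAF1, which were not called there. SAMD9L, LGALS3BP and XAF1 had the smallest F-test p for unequal responses between lines, and of these LGALS3BP has a core. A match is a description of the letters, and binding was not measured.

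**Figure D2:**
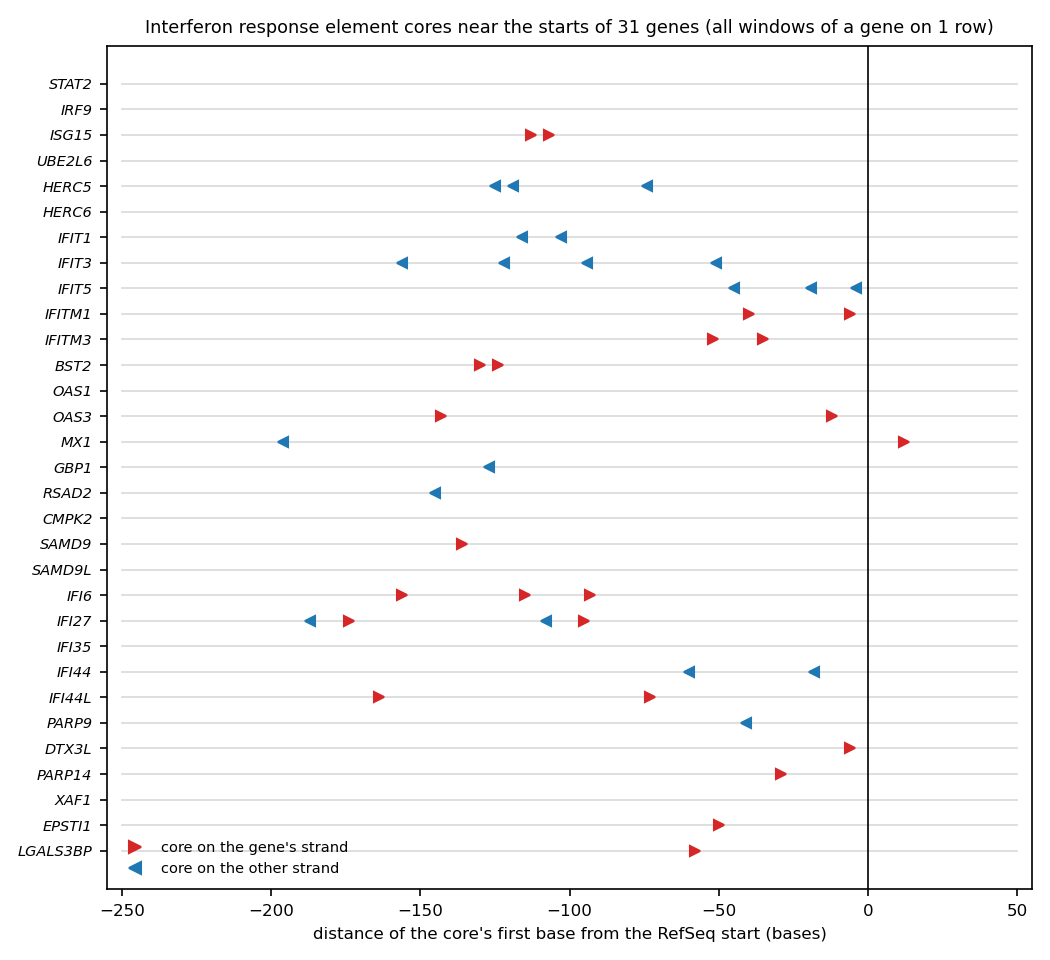
Position of each GAAANNGAAA core, in bases from the RefSeq start, for the 31 genes with a promoter window. Red marks lie on the gene's strand and blue marks on the other strand. The cores lie at positions from -196 to 12 relative to the start, and 22 genes have at least 1.

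The signalling genes STAT2, IRF9 and IRF7 all rose on the panel mean. STAT2 and IRF9 are subunits of ISGF3, and IRF7 is the factor that amplifies interferon production. IRF7 rose by 0.81 (SE 0.09, adjusted p = 4.2e-07). In SKM-1, IRF7 was at 67.6, 60.2 and 70.0 with DMSO and at 252, 243 and 249.6 with decitabine. In KG-1, IRF7 was at 56.1, 52.5 and 45.9 with DMSO and at 93.9, 174 and 110.3 with decitabine. In MOLM-14, IRF7 was at 190.0, 109 and 159.7 with DMSO and at 261, 273 and 194 with decitabine. In each of these 3 lines every decitabine library was above every DMSO library. In MOLM-13, IRF7 was at 108, 96.9 and 103 with DMSO and at 121, 133 and 111 with decitabine. In OCI-AML3, IRF7 was at 623, 531 and 684 with DMSO and at 572, 685 and 559.9 with decitabine. MOLM-13 showed a small shift without overlap, and the 2 arms of OCI-AML3 were intermingled. IRF7 was called in SKM-1 (1.90), KG-1 (1.23) and MOLM-14 (0.69), and its responses differed between lines (F-test adjusted p = 0.00026). The MOLM-14 call ended without decitabine replicate 1, decitabine replicate 2 or DMSO replicate 2 (adjusted p of up to 0.19), and without the 6 shallow libraries the difference was 0.37 (adjusted p = 0.13).

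IRF9 rose by 0.62 (SE 0.13, adjusted p = 0.0015) on the panel mean. In SKM-1, IRF9 was at 13.8, 13.8 and 7.60 with DMSO and at 29.1, 43.8 and 21.0 with decitabine. In MOLM-14, IRF9 was at 87.2, 95.7 and 44.9 with DMSO and at 157, 122 and 147 with decitabine. In KG-1, IRF9 was at 164, 173 and 123 with DMSO and at 191, 190.3 and 178 with decitabine. The arms did not overlap in these lines, and SKM-1 had the lowest DMSO level of the 5. In MOLM-13, IRF9 was at 41.9, 49.2 and 91.6 with DMSO and at 83.7, 68.6 and 84.3 with decitabine. In OCI-AML3, IRF9 was at 512, 545 and 435 with DMSO and at 625, 491 and 465 with decitabine. The arms overlapped in both. The call was made in SKM-1 (1.33, SE 0.30, adjusted p = 0.0042) and MOLM-14 (0.96, SE 0.30, adjusted p = 0.041), the latter ended by leaving out any one of 4 of the line's 6 libraries. Quantile normalisation ended both, with a difference of 0.79 (adjusted p = 0.095) in SKM-1 and 0.80 (adjusted p = 0.081) in MOLM-14. Of the 50-base stretches of IRF9 transcripts, 43.6% also occur in other genes, mainly an unnamed gene listed as AL136295.5, so its level is uncertain. STAT2, the subunit that carries the transactivation domain of ISGF3, rose by 0.50 (SE 0.08, adjusted p = 9.8e-05), with calls in MOLM-14 (0.98) and SKM-1 (0.73). The SKM-1 call ended without decitabine replicate 2 (adjusted p = 0.061) or DMSO replicate 3 (0.064).

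Of the 5 genes of the ISG15 system, ISG15, UBE2L6 and HERC5 rose on the panel mean, USP18 fell and HERC6 was not called (0.17, SE 0.09, adjusted p = 0.21). ISG15 is the tag itself, UBE2L6 its conjugating enzyme and HERC5 its ligase, while USP18 removes the tag and restrains the interferon receptor. ISG15 rose by 0.43 (SE 0.15, adjusted p = 0.048), a call that ended when any one of 22 of the 30 libraries was left out (adjusted p of 0.054 to 0.088). UBE2L6 rose by 0.25 (SE 0.06, adjusted p = 0.0041), led by MOLM-14 (0.87, SE 0.13, adjusted p = 0.00010), and HERC5 by 0.24 (SE 0.06, adjusted p = 0.0029), led by KG-1 (0.53, SE 0.12, adjusted p = 0.012). The HERC5 call on the panel mean ended without KG-1 (adjusted p = 0.073), and that of UBE2L6 without MOLM-14 (0.36) or without MOLM-13 (0.056). The KG-1 call of HERC5 ended without decitabine replicate 3 or DMSO replicate 1 (adjusted p of up to 0.064).

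USP18 fell by 0.37 (SE 0.09, adjusted p = 0.0061) on the log2 scale. In OCI-AML3, USP18 was at 508, 601 and 471 with DMSO and at 296, 282 and 313 with decitabine. In MOLM-13, USP18 was at 121, 112 and 118 with DMSO and at 64.9, 80.1 and 63.3 with decitabine. In both lines all 3 decitabine libraries were below all 3 DMSO libraries. In MOLM-14, USP18 was at 136, 151 and 139 with DMSO and at 145, 123 and 105 with decitabine. In KG-1, USP18 was at 16.0, 33.2 and 14.9 with DMSO and at 17.0, 21.5 and 20.4 with decitabine. In SKM-1, USP18 was at 133, 141 and 143 with DMSO and at 128, 148 and 125 with decitabine. The arms overlapped in these 3 lines. The fall was called in OCI-AML3 (-0.82, SE 0.21, adjusted p = 0.022), not without its decitabine replicate 2 or DMSO replicate 2 (adjusted p of up to 0.11), and missed the threshold in MOLM-13 (-0.75, SE 0.21, adjusted p = 0.053). Leaving out OCI-AML3 or MOLM-13 as a line ended the call on the panel mean, with adjusted p values of 0.12 and 0.13. USP18 shares 23.4% of its 50-base stretches with other genes, mainly USP41, so its level is uncertain.

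The IFIT proteins bind foreign RNA ends, and their genes lie within chr10:89283694-89421001 on the plus strand (GENCODE 29, GRCh38), IFIT1 to IFIT3 opposite to LIPA. IFIT2, IFIT3 and IFIT5 rose on the panel mean and IFIT1 was not called (0.03, SE 0.10, adjusted p = 0.88). IFIT2 rose by 0.74 (SE 0.13, adjusted p = 0.00011). In MOLM-14, IFIT2 was at 18.2, 21.2 and 15.4 with DMSO and at 76.2, 32.4 and 62.9 with decitabine. In SKM-1, IFIT2 was at 13.7, 18.1 and 18.8 with DMSO and at 55.9, 44.3 and 51.2 with decitabine. All decitabine libraries of MOLM-14 and SKM-1 were above all DMSO libraries. In KG-1, IFIT2 was at 180.1, 160.4 and 184 with DMSO and at 205, 156 and 204 with decitabine. In MOLM-13, IFIT2 was at 68.9, 38.2 and 56.7 with DMSO and at 62.2, 78.0 and 62.7 with decitabine. In OCI-AML3, IFIT2 was at 209.8, 112 and 161 with DMSO and at 177, 207 and 156 with decitabine. These 3 lines overlapped between arms and had higher DMSO levels. IFIT2 was called in MOLM-14 (1.52, SE 0.28, adjusted p = 0.00074) and SKM-1 (1.53, SE 0.28, adjusted p = 0.00046).

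IFIT3 rose by 0.39 (SE 0.08, adjusted p = 0.00051) on the panel mean, and that call ended without MOLM-14 (adjusted p = 0.19). In MOLM-14, IFIT3 was at 58.0, 40.3 and 59.9 with DMSO and at 123, 204 and 128 with decitabine. In SKM-1, IFIT3 was at 82.2, 89.5 and 85.6 with DMSO and at 126, 114 and 112 with decitabine. In KG-1, IFIT3 was at 315, 266 and 318 with DMSO and at 322, 413 and 386 with decitabine. The arms of each of these lines did not overlap, with the widest gap in MOLM-14 (1.49, SE 0.17, adjusted p = 1.8e-06). In OCI-AML3, IFIT3 was at 875, 807 and 886 with DMSO and at 687, 652 and 640.4 with decitabine. In MOLM-13, IFIT3 was at 102, 85.3 and 96.1 with DMSO and at 96.2, 110.2 and 95.9 with decitabine. In OCI-AML3 all 3 decitabine libraries were lower, though the difference of -0.37 (SE 0.17, adjusted p = 0.24) was not called, and in MOLM-13 the arms overlapped. IFIT3 was the 1 gene of the 38 whose response differed between the sister lines, by -1.40 (SE 0.24, adjusted p = 0.0028) for MOLM-13 minus MOLM-14, a difference called for 1.43% of all genes. Every MOLM-14 library (at most 17300000 reads) was shallower than every MOLM-13 library (at least 42900000). The sample numbers of MOLM-13 and MOLM-14 also lie in separate ranges. Line, depth and range of sample numbers therefore cannot be told apart in this contrast. IFIT5 rose by 0.58 (SE 0.08, adjusted p = 3.4e-06), with calls in SKM-1 (1.51, SE 0.17, adjusted p = 5.5e-07) and MOLM-13 (0.80, SE 0.17, adjusted p = 0.0083). In MOLM-13 the IFIT5 call ended without decitabine replicate 1 or DMSO replicate 2 (adjusted p of up to 0.081).

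IFITM1, IFITM2 and IFITM3 are membrane proteins that block the fusion of entering viruses, and BST2 is tetherin, which holds budding virus at the surface. The 3 IFITM genes rose on the panel mean and BST2 was not called (0.24, SE 0.09, adjusted p = 0.067), though it rose in SKM-1 (0.85, SE 0.20, adjusted p = 0.0063). IFITM1 rose by 1.11 (SE 0.37, adjusted p = 0.036). In OCI-AML3, IFITM1 was at 9.94, 0 and 9.45 with DMSO and at 51.2, 57.4 and 8.90 with decitabine. In MOLM-14, IFITM1 was at 4.24, 0 and 7.60 with DMSO and at 15.1, 34.6 and 5.37 with decitabine. In SKM-1, IFITM1 was at 20.4, 20.9 and 21.5 with DMSO and at 60.9, 47.3 and 30.1 with decitabine. The shallow DMSO replicate 2 was at 0 in both OCI-AML3 and MOLM-14, where the arms overlapped, and SKM-1 was the 1 line without overlap (higher). In KG-1, IFITM1 was at 362, 395 and 207 with DMSO and at 249, 403 and 257 with decitabine. In MOLM-13, IFITM1 was at 7.68, 7.81 and 6.12 with DMSO and at 4.25, 13.1 and 3.76 with decitabine. KG-1 had far more IFITM1 than the other lines and its arms overlapped, as did those of MOLM-13. The panel call of IFITM1 ended when any one of 13 of the 30 libraries was left out (adjusted p of 0.051 to 0.068), and without the 6 shallow libraries the difference was 0.48 (adjusted p = 0.19).

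IFITM3 rose by 0.98 (SE 0.18, adjusted p = 0.00031) on the panel mean. In SKM-1, IFITM3 was at 34.1, 46.5 and 29.3 with DMSO and at 125, 130.1 and 92.8 with decitabine. In OCI-AML3, IFITM3 was at 173, 210.5 and 266 with DMSO and at 419.7, 365 and 333 with decitabine. In MOLM-13, IFITM3 was at 18.6, 14.6 and 18.2 with DMSO and at 34.7, 35.5 and 32.6 with decitabine. All decitabine libraries were above all DMSO libraries in these lines. In KG-1, IFITM3 was at 36.7, 12.1 and 30.01 with DMSO and at 55.9, 31.1 and 34.7 with decitabine. In MOLM-14, IFITM3 was at 56.6, 11.3 and 24.1 with DMSO and at 33.8, 50.3 and 50.2 with decitabine. Both overlapped between arms, with the shallow DMSO replicate 2 the lowest of each. SKM-1 alone gave a call for IFITM3 (1.64, SE 0.41, adjusted p = 0.0087), and it ended without DMSO replicate 3 (adjusted p = 0.051). IFITM2 rose by 0.30 (SE 0.07, adjusted p = 0.0018), with calls in SKM-1 (0.70) and OCI-AML3 (0.60), the latter not without its DMSO replicate 1 or 2 (adjusted p of up to 0.059). Without SKM-1 the panel call of IFITM2 ended (adjusted p = 0.12). The 3 genes share sequence with each other, at 32%, 34.1% and 17.4% of the 50-base stretches of IFITM1, IFITM2 and IFITM3, so that reads could be split between them. The annotated IFITM1 also lies wholly within IFITM2 on the same strand (chr11:313506-315272 within chr11:307631-315272, GENCODE 29).

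The OAS enzymes sense double-stranded RNA and start its decay through RNase L. Of OAS1, OAS2, OAS3 and OASL, OAS3 rose on the panel mean (0.42, SE 0.13, adjusted p = 0.026), with its call in KG-1 (1.12, SE 0.29, adjusted p = 0.027), which ended when any one of 4 of that line's 6 libraries was left out. Without KG-1 the panel call ended (adjusted p = 0.32), as it did without SKM-1 (0.071) or MOLM-13 (0.092). OAS1, OAS2 and OASL, an OAS-like protein without the enzyme's activity, were not called in any line. The largest OASL difference was 1.39 (SE 0.75, adjusted p = 0.44), in KG-1. In MOLM-14 the OAS1 and OAS2 differences were 1.04 (SE 0.36, adjusted p = 0.063) and 1.00 (SE 0.50, adjusted p = 0.21), and in OCI-AML3 -0.30 (SE 0.36, adjusted p = 0.73) and -0.55 (SE 0.50, adjusted p = 0.62). Of the GTPases, MX2 rose by 0.62 (SE 0.15, adjusted p = 0.0053), with calls in SKM-1 (1.25) and MOLM-14 (1.16), each ended by leaving out any one of 4 of the line's 6 libraries. The panel call of MX2 ended without SKM-1 (adjusted p = 0.13). MX1 was not called (0.12, SE 0.12, adjusted p = 0.56), nor was GBP1 (0.83, SE 0.35, adjusted p = 0.10). GBP1 had no overlap between arms in 3 lines, among them MOLM-13, where it was at 0.273, 0 and 0.264 with DMSO and at 3.39, 0.787 and 3.39 with decitabine. Without the 6 shallow libraries the GBP1 panel mean of 0.92 was called (adjusted p = 0.0025).

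RSAD2, known as viperin, makes a chain-terminating nucleotide, and CMPK2 is the nucleotide kinase encoded beside it. RSAD2 (chr2:6865806-6898239, plus strand) and CMPK2 (chr2:6840570-6866635, minus strand) overlap at their starts in GENCODE 29, and whether reads were counted by strand is not given in the sources used here, so reads of one could be counted for the other. CMPK2 fell by 0.46 (SE 0.08, adjusted p = 0.00011) on the panel mean and kept this call in all 46 alternatives. In KG-1, CMPK2 was at 6364, 5623 and 7087 with DMSO and at 4203, 3360.2 and 4169 with decitabine. In OCI-AML3, CMPK2 was at 1428, 1409 and 1400.0 with DMSO and at 860.3, 839 and 1002 with decitabine. In MOLM-13, CMPK2 was at 179.6, 167 and 181 with DMSO and at 121, 136 and 128 with decitabine. No decitabine library reached the DMSO range in these lines. In SKM-1, CMPK2 was at 482, 471 and 517 with DMSO and at 404, 401 and 419.6 with decitabine. In MOLM-14, CMPK2 was at 209.5, 178 and 222 with DMSO and at 217, 110.0 and 225 with decitabine. SKM-1 likewise did not overlap, and MOLM-14 did. The fall was called in KG-1 (-0.70, SE 0.17, adjusted p = 0.018) and OCI-AML3 (-0.65, SE 0.17, adjusted p = 0.025), and they ended without either of 2 KG-1 libraries (decitabine replicate 2 or DMSO replicate 3, adjusted p of up to 0.11) or without any one of 5 OCI-AML3 libraries (up to 0.087).

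RSAD2 fell in KG-1 and rose in MOLM-14. In KG-1, RSAD2 was at 3687, 3444 and 3461 with DMSO and at 1959.7, 1797 and 1913 with decitabine. In MOLM-14, RSAD2 was at 60.3, 78.9 and 115 with DMSO and at 125, 171 and 131 with decitabine. The arms did not overlap in either line. KG-1 had the highest level of the 5 lines, with a difference of -0.90 (SE 0.23, adjusted p = 0.025). The MOLM-14 difference was 0.77 (SE 0.23, adjusted p = 0.033). In OCI-AML3, RSAD2 was at 190.0, 150.4 and 279 with DMSO and at 265, 228 and 435 with decitabine. In MOLM-13, RSAD2 was at 72.8, 84.1 and 73.8 with DMSO and at 78.0, 65.4 and 55.9 with decitabine. In SKM-1, RSAD2 was at 59.1, 69.9 and 59.5 with DMSO and at 80.5, 69.6 and 74.6 with decitabine. The arms overlapped in these 3 lines. The KG-1 call ended when any one of the line's 6 libraries was left out (adjusted p of up to 0.092), and the MOLM-14 call for any one of 3 (up to 0.15). The panel mean was not called (0.10, SE 0.10, adjusted p = 0.60), and the F-test of unequal responses gave an adjusted p of 0.0058.

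SAMD9 (chr7:93099513-93118023) and SAMD9L (chr7:93130055-93148369) are neighbours on the minus strand that restrict poxviruses and slow translation. SAMD9L had the smallest F-test p of the 38 (adjusted p = 5.8e-07). In SKM-1, SAMD9L was at 138, 137 and 143 with DMSO and at 306, 283 and 365 with decitabine. In MOLM-14, SAMD9L was at 398, 415 and 412 with DMSO and at 549, 583 and 510.5 with decitabine. Both lines had all decitabine libraries above all DMSO libraries. In OCI-AML3, SAMD9L was at 4875, 4608 and 4623 with DMSO and at 4592, 3330.0 and 3258 with decitabine. In KG-1, SAMD9L was at 1292, 1153 and 1250.3 with DMSO and at 1057, 1056 and 1051 with decitabine. In MOLM-13, SAMD9L was at 608, 583 and 537 with DMSO and at 531, 566 and 554 with decitabine. The decitabine libraries lay below the DMSO range in OCI-AML3 and KG-1 and overlapped it in MOLM-13. The rise was called in SKM-1 (1.18, SE 0.11, adjusted p = 2.2e-08) and MOLM-14 (0.42, SE 0.11, adjusted p = 0.013), while OCI-AML3 (-0.35, SE 0.11, adjusted p = 0.058) missed the threshold. The panel mean of 0.19 (SE 0.05, adjusted p = 0.0057) rested on SKM-1: without that line it was -0.05 (adjusted p = 0.62), and without MOLM-14 it was 0.13 (adjusted p = 0.11). The MOLM-14 call ended without the shallow decitabine replicate 2 (adjusted p = 0.057). SAMD9 rose by 0.22 (SE 0.04, adjusted p = 5.3e-05), with its largest difference in SKM-1 (0.69, SE 0.08, adjusted p = 8.3e-07), and lost the panel call without that line (adjusted p = 0.16).

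Of the 5 IFI genes, IFI6, IFI27 and IFI35 rose on the panel mean, and IFI44 (-0.11, SE 0.15, adjusted p = 0.68) and IFI44L (0.08, SE 0.35, adjusted p = 0.91) were not called. IFI6, a small hydrophobic protein related to that of IFI27, rose by 0.76 (SE 0.09, adjusted p = 6.4e-07) and kept this call in all 46 alternatives. In MOLM-14, IFI6 was at 12.6, 20.2 and 23.8 with DMSO and at 51.7, 61.8 and 69.5 with decitabine. In SKM-1, IFI6 was at 61.1, 87.7 and 66.3 with DMSO and at 166, 160.1 and 154 with decitabine. In MOLM-13, IFI6 was at 109, 94.9 and 106 with DMSO and at 173, 186 and 174 with decitabine. No decitabine library was as low as the DMSO libraries of its line. In KG-1, IFI6 was at 127, 133 and 139 with DMSO and at 153, 207 and 181 with decitabine. In OCI-AML3, IFI6 was at 1596, 2140.1 and 1977 with DMSO and at 1279, 1896 and 1659 with decitabine. KG-1 also had no overlap between its arms, and OCI-AML3, with the highest level, overlapped. IFI6 was called in MOLM-14 (1.68), SKM-1 (1.16) and MOLM-13 (0.78), and the MOLM-13 call ended when any one of that line's 6 libraries was left out. IFI35 rose by 0.26 (SE 0.08, adjusted p = 0.028), with calls in SKM-1 (0.84) and MOLM-14 (0.80), the latter not without the shallow decitabine replicate 2 (adjusted p = 0.051). Its panel call ended in 9 of 46 alternatives, among them the fits without SKM-1 (adjusted p = 0.57) and without the 6 shallow libraries (0.15).

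XAF1, a promoter of apoptosis that antagonises XIAP, rose in SKM-1 and fell in MOLM-14. In SKM-1, XAF1 was at 35.6, 17.8 and 20.5 with DMSO and at 65.8, 62.3 and 66.8 with decitabine. In MOLM-14, XAF1 was at 2611, 1849 and 2869 with DMSO and at 1719.8, 1122 and 1781 with decitabine. In SKM-1, where its level was lowest, XAF1 rose by 1.43 (SE 0.21, adjusted p = 2.6e-05). In MOLM-14 it fell by 0.67 (SE 0.21, adjusted p = 0.037), a call that ended without decitabine replicate 2, DMSO replicate 1 or DMSO replicate 3 (adjusted p of up to 0.22). In OCI-AML3, XAF1 was at 3497, 4187 and 3386 with DMSO and at 2708, 2162 and 2651 with decitabine. In MOLM-13, XAF1 was at 2738, 2559.8 and 2763 with DMSO and at 2458, 2248 and 2173 with decitabine. In KG-1, XAF1 was at 308, 201 and 282 with DMSO and at 217, 243 and 235 with decitabine. The decitabine libraries were below the DMSO range in OCI-AML3 and MOLM-13, with differences of -0.56 (SE 0.21, adjusted p = 0.13) and -0.23 (SE 0.21, adjusted p = 0.85) that were not called, and overlapped it in KG-1. The F-test gave an adjusted p of 9.4e-05, and the panel mean was -0.04 (SE 0.09, adjusted p = 0.83). Without SKM-1 the panel mean was called lower, at -0.41 (adjusted p = 0.0054). EPSTI1 was not called on the panel mean (0.58, SE 0.41, adjusted p = 0.38); in SKM-1 it was at 3.69, 1.12 and 1.16 with DMSO and at 16.8, 14.4 and 10.5 with decitabine. Without the 6 shallow libraries its panel mean of 0.60 was called (adjusted p = 0.0038). PARP9 and DTX3L form an E3 ligase and ADP-ribosylation complex, and their genes overlap on opposite strands. PARP9 rose by 0.17 (SE 0.05, adjusted p = 0.020), with calls in MOLM-14 (0.62) and SKM-1 (0.46, not without DMSO replicate 2). Its panel call ended without SKM-1 (adjusted p = 0.40), MOLM-14 (0.44) or MOLM-13 (0.069). DTX3L and PARP14 were not called, at -0.03 (SE 0.05, adjusted p = 0.71) and 0.13 (SE 0.07, adjusted p = 0.26).

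**Figure D3:**
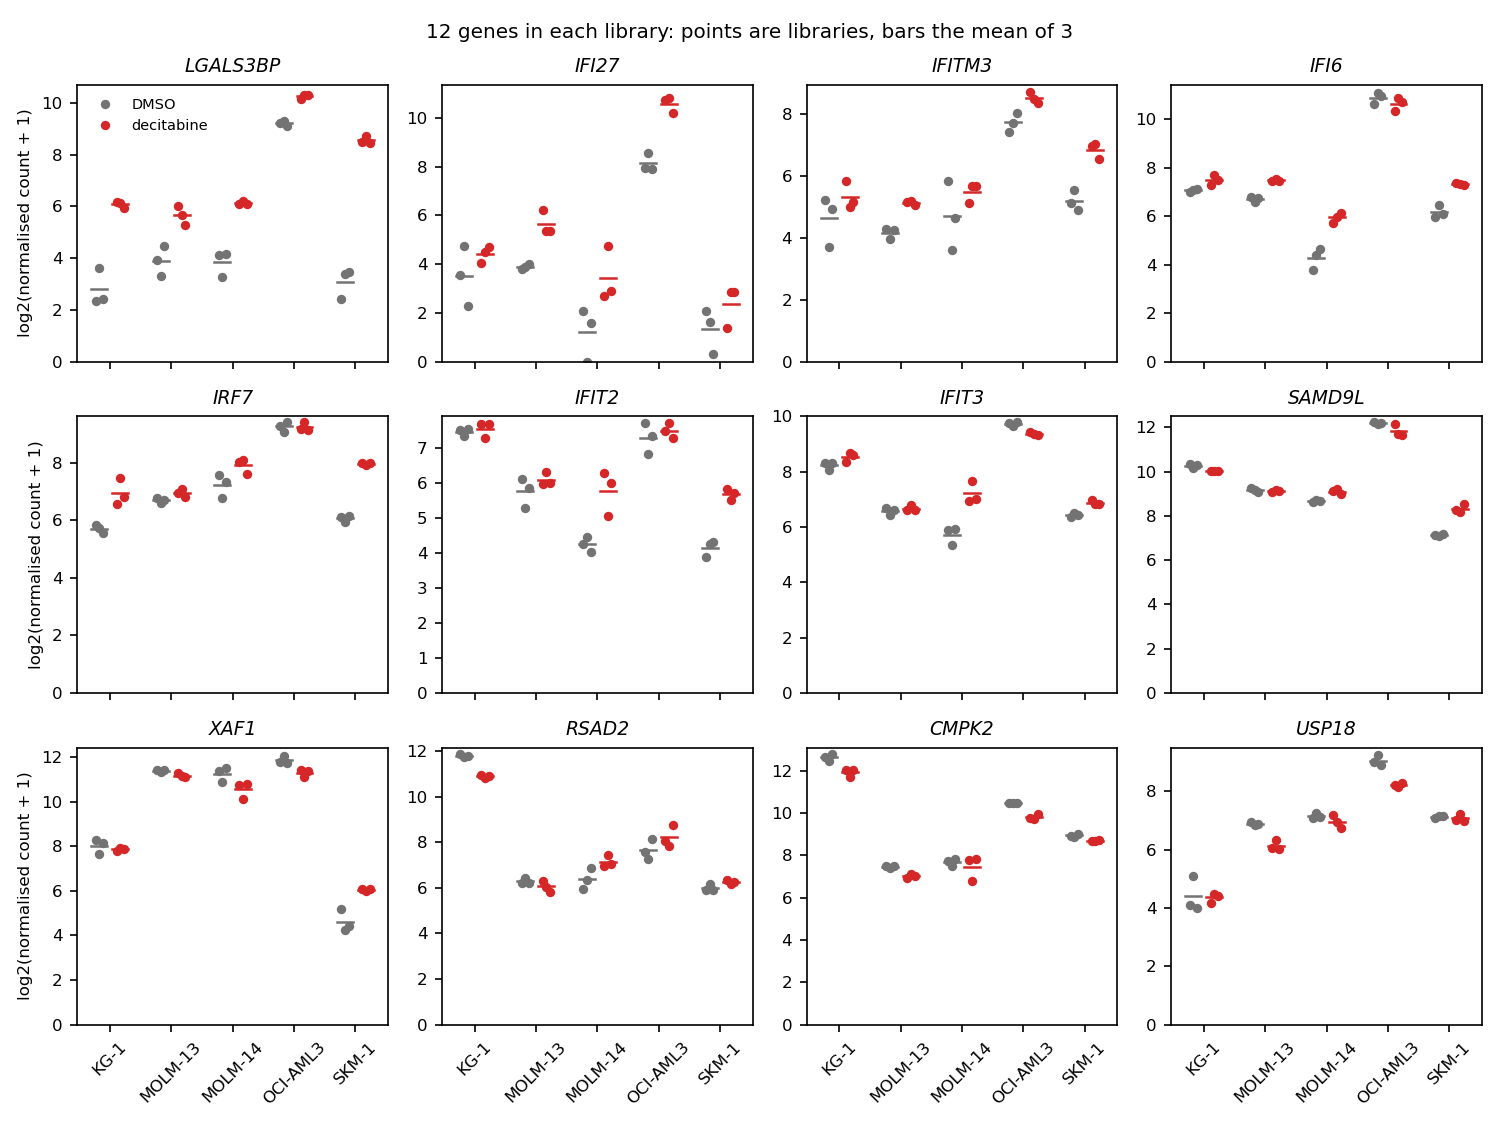
Log2(normalised count + 1) of 12 genes in each of 30 libraries, by line, with DMSO in grey and decitabine in red. Points are libraries and bars the mean of 3. The decitabine points of LGALS3BP lie above its DMSO points in every line, those of CMPK2 lie below in 4 lines, and SAMD9L and XAF1 were called higher in SKM-1.

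By line, decitabine raised 16 of the 38 genes in SKM-1 (5.7% of all genes were called higher there) and lowered 0 (3.32%). These were LGALS3BP, IRF7, IFITM3, IFIT2, IFIT5, XAF1, IRF9, MX2, SAMD9L, IFI6, BST2, IFI35, STAT2, IFITM2, SAMD9 and PARP9. Across SKM-1 libraries 27 genes had higher decitabine values without overlap (29.2% of all genes) and 1, CMPK2, had lower ones (18.9%). At an unadjusted p below 0.05, limma gave 20 higher and 0 lower. In a fit on SKM-1 alone 25 were called higher and 1 lower, without a share of all genes to set beside them. Of the 16 calls, 12 held whichever of the line's 6 libraries was left out. The other 4 were those of IFITM3, MX2, PARP9 and STAT2.

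In MOLM-14, 15 genes rose (6.26% of all genes) and XAF1 fell (4.77%). Without overlap 18 were higher (11.2%) and 1 lower (9.5%), and without the shallow replicate 2 the counts were 22 (24.6%) and 1 (21.4%). The 7 calls that held without any single library of the line were those of IFI6, IFIT2, IFIT3, LGALS3BP, PARP9, STAT2 and UBE2L6. Leaving out the shallow decitabine replicate 2 reduced the count of genes higher from 15 to 9, and without DMSO replicate 1 or 3 or that library no fall was called. A limma fit on MOLM-14 alone called 0 in either direction, against 16 higher and 1 lower at an unadjusted p below 0.05.

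In its sister line MOLM-13, 3 genes rose (1.45% of all genes): LGALS3BP, IFI6 and IFIT5. No fall was called with limma (1.67% of all genes), against 2 at an unadjusted p below 0.05. Without overlap 17 were higher (22.8%) and 3 lower (17%). Without the 6 shallow libraries, which belong to other lines but enter the shared estimate of spread, 11 were called higher and 2 lower, and a fit on MOLM-13 alone called 9 and 3. Leaving out MOLM-13 decitabine replicate 1 or DMSO replicate 2 left LGALS3BP as the 1 call.

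KG-1 had 4 genes higher (3.12% of all genes), LGALS3BP, IRF7, OAS3 and HERC5, and 2 lower (0.663%), RSAD2 and CMPK2. Without overlap 8 were higher (10.2%) and 4 lower (6.44%), and without the shallow replicate 2 the counts were 15 (22.7%) and 9 (17.8%). Only LGALS3BP and IRF7 of these 6 calls held whichever of the line's libraries was left out. A fit on KG-1 alone called 1 in each direction.

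OCI-AML3 had 2 genes higher (3.74% of all genes), IFI27 and IFITM2, and 2 lower (1.64%), USP18 and CMPK2, and each of the 4 calls ended when 1 of at least 2 of its libraries was left out. Without overlap 5 were higher (10.1%) and 12 lower (7.42%), among them IFIT1, IFIT3, OAS1, OAS2, OAS3, MX1, SAMD9L and XAF1. Without the shallow replicate 2 those counts were 6 (22.6%) and 16 (18.6%). OCI-AML3 was the 1 line in which more of the 38 genes had a difference below 0 (21) than above (17), where 51.2% of all genes were above 0. The split was 24 to 14 under quantile normalisation, where KG-1 had 19 of each. That scaling put the median of all genes at -0.01 in OCI-AML3 and -0.04 in KG-1.

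**Figure D4:**
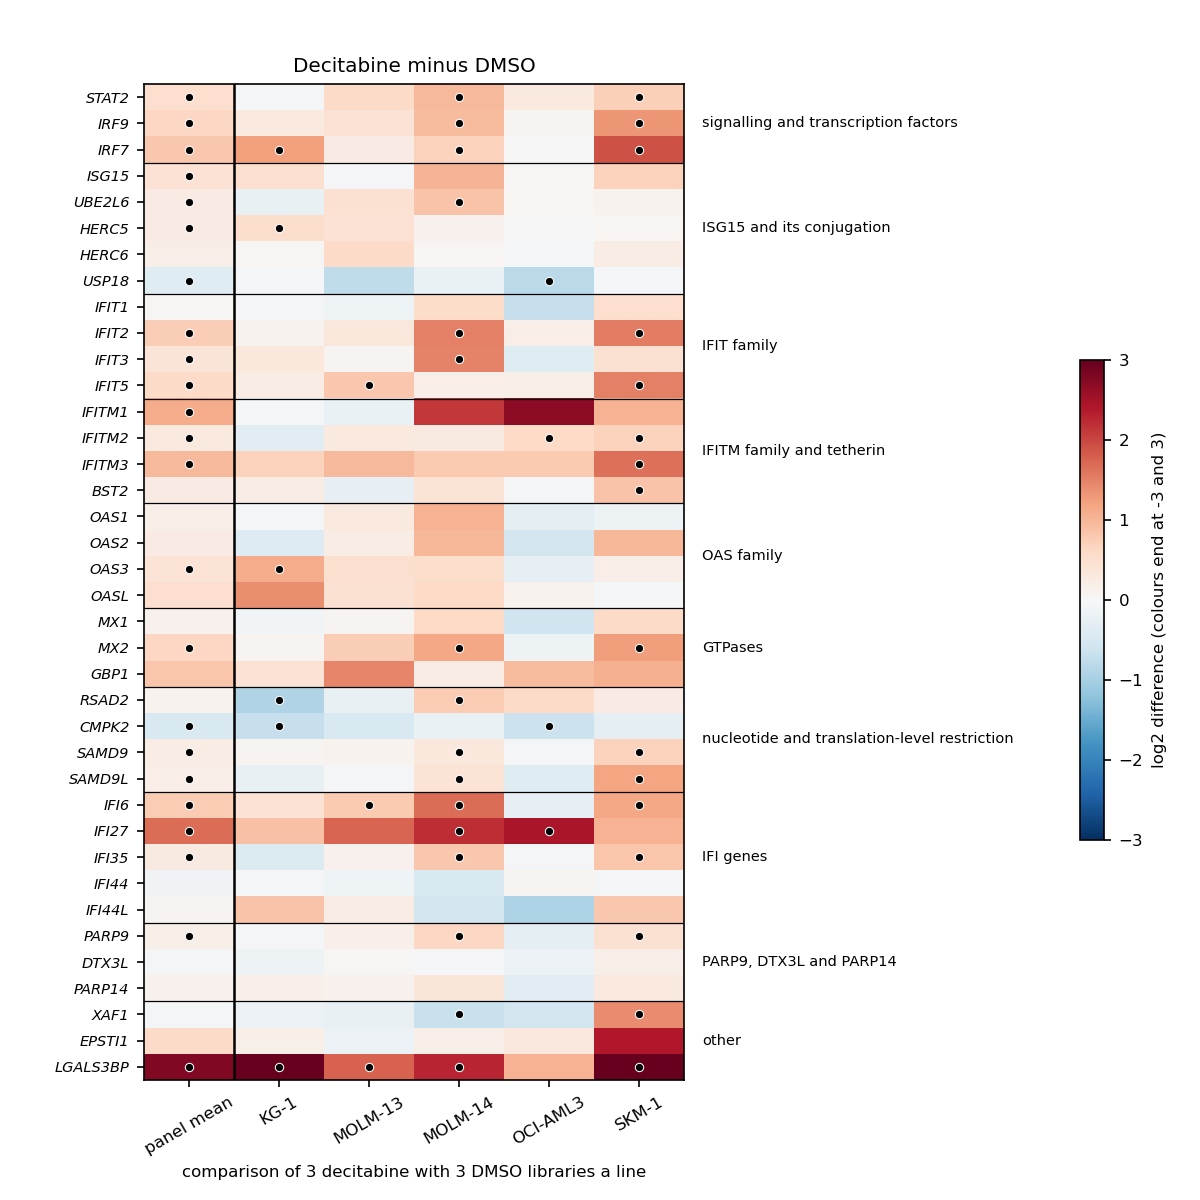
Log2 difference between decitabine and DMSO for the 38 genes, grouped by role, on the panel mean and in each line (colours end at -3 and 3). A dot marks an adjusted p below 0.05. SKM-1 has 16 dots and MOLM-14 16, against 6 in KG-1, 4 in OCI-AML3 and 3 in MOLM-13.

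The F-test called unequal responses among the 5 lines for 15 of the 38 genes (9.46% of all genes). A contrast of each line's response with the mean of the other 4 was added after the values were seen. The response in OCI-AML3 was below that of the other lines for 7 genes (1% of all genes) and above it for 0 (1.41%; 3 at an unadjusted p below 0.05 in limma). The 7 were LGALS3BP (-2.16, SE 0.38, adjusted p = 0.0018), IFI6 (-1.26, SE 0.22, adjusted p = 0.0017), IRF7 (-1.03), IFIT3 (-0.96), SAMD9L (-0.68), PARP9 (-0.59) and SAMD9 (-0.36). SKM-1 responded above the other lines for 7 genes (2.86%) and below for 0 (1.01%; 0 at an unadjusted p below 0.05). These were LGALS3BP (3.38, SE 0.38, adjusted p = 1.1e-06), XAF1 (1.83, SE 0.23, adjusted p = 7.4e-06), IRF7 (1.36), SAMD9L (1.23), IFIT5 (1.16), IFI35 (0.72) and SAMD9 (0.58). MOLM-14 was above for IFIT3, IFI6, UBE2L6 and PARP9 (1.62%) and below for 0 (1.99%; 2 unadjusted). KG-1 was below for RSAD2, IFI35, IFITM2, UBE2L6 and SAMD9L (1.1%) and above for 0 (1.92%; 3 unadjusted). MOLM-13 was above for 0 (0.429%; 1 unadjusted) and below for 0 (0.952%; 4 unadjusted). Each line's mean enters the contrasts of the others, so these counts are not independent.

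Before treatment, OCI-AML3 stood above the other lines. Its DMSO mean was the highest of the 5 for 28 of the 38 genes, KG-1 had the highest for 9 and SKM-1 for HERC5. SKM-1 had the lowest mean for 18, MOLM-13 and MOLM-14 for 8 each and KG-1 for 4. The F-test of DMSO levels was called for all 38 genes (77.9% of all genes). OCI-AML3 was above each of the other 4 lines for 26 genes (4.99% of all genes), SKM-1 was below each of the other 4 for 11 (4.95%), and KG-1 was above each for 6 (6.92%). Every library of OCI-AML3, MOLM-14 and KG-1 was shallower (at most 31200000 reads) than every library of MOLM-13 and SKM-1 (at least 42900000). The sample numbers of those sets also lie in separate ranges. Line, depth and range of sample numbers therefore cannot be told apart in comparisons of levels or of responses between those sets. The DMSO libraries enter both these levels and the differences above.

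Several OAS and MX genes covered a wide range of DMSO levels. OAS2 measured 4761, 3605 and 4763 in OCI-AML3 and 0, 0.382 and 0 in SKM-1, where 1 read is worth 0.283 to 0.387. MOLM-14, KG-1 and MOLM-13 lay between, and neither MOLM-14 and KG-1 (0.59, SE 0.50, adjusted p = 0.37) nor KG-1 and MOLM-13 (1.16, SE 0.50, adjusted p = 0.058) differed by the test. OAS1 had a mean of 1519 ± 65.1 (SD, n = 3) in OCI-AML3 and 5.60 ± 2.44 in SKM-1. MX1 was at 4766, 5152 and 5111 in OCI-AML3 and at 49.7, 52.6 and 42.1 in MOLM-14, where it did not differ from KG-1 (0.11, SE 0.27, adjusted p = 0.80). SAMD9L differed at every step of its order, OCI-AML3, KG-1, MOLM-13, MOLM-14 and SKM-1. KG-1 was instead highest for RSAD2, at 3687, 3444 and 3461, and for CMPK2, EPSTI1, GBP1, IFI44, IFIT2, IFITM1, IFITM2 and UBE2L6. HERC5 was highest in SKM-1 at 1283, 1233 and 1258 and lowest in MOLM-13 at 28.5, 21.7 and 32.3. The 6 genes for which KG-1 was above each other line by the test were UBE2L6, IFITM1, IFITM2, GBP1, RSAD2 and CMPK2.

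**Figure D5:**
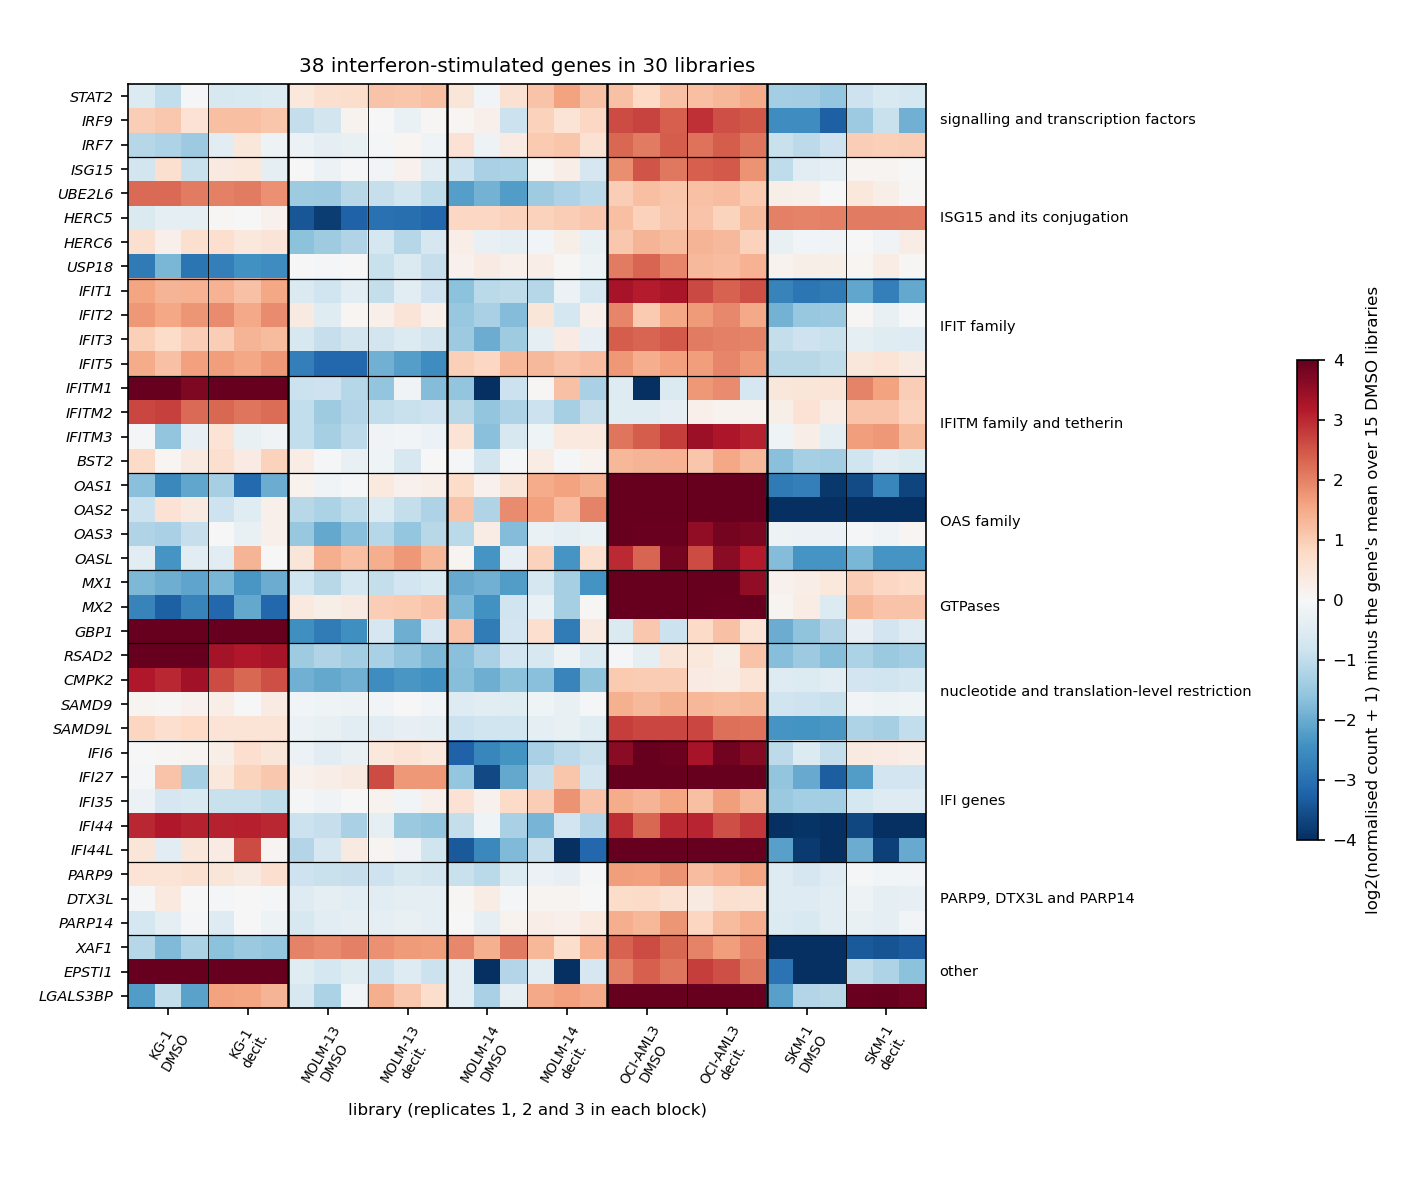
Log2(normalised count + 1) of the 38 genes in 30 libraries, each gene relative to its mean over the 15 DMSO libraries (colours end at -4 and 4), grouped by role and by line and treatment. OCI-AML3 columns are red for most genes with DMSO and with decitabine, and SKM-1 DMSO columns are blue for 11 genes that were below each other line.

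Interferon transcripts were at or near 0. Of the 22 interferon genes listed, 16 were at 0 in all 30 libraries, including every IFNA gene listed, and none passed the filter. The few reads lay mostly in one group: the summed level of the 22 was 1.46 to 2.70 in the SKM-1 decitabine libraries, against 0 to 0.325 with DMSO in that line, and 1 read was worth 0.347 to 0.387 in the former. The sum was 0 in every other decitabine library and at most 0.310 in the other DMSO libraries. In the libraries of OCI-AML3, KG-1 and MOLM-14, 1 read was worth 0.595 to 10.3, so that levels this low would give few reads or none. The highest value of any was 1.74, for IFNL4 in SKM-1 with decitabine, and IFNB1 reached at most 0.325, in 2 libraries. Among 9 receptor and kinase genes, JAK1 (0.44, SE 0.10, adjusted p = 0.0034), IL10RB (0.34, SE 0.11, adjusted p = 0.027) and JAK2 (0.23, SE 0.07, adjusted p = 0.033) rose on the panel mean and none fell, and the receptor chains IFNAR1 (-0.03, SE 0.06, adjusted p = 0.80) and IFNAR2 (0.14, SE 0.10, adjusted p = 0.36) were not called. Of 8 further signal transducers and interferon regulatory factors, IRF5 was the 1 called, and it rose (0.36, SE 0.10, adjusted p = 0.013). Of 10 negative regulators, SOCS1 rose (0.91, SE 0.15, adjusted p = 7.8e-05) and PTPN11 fell (-0.16, SE 0.04, adjusted p = 0.0050). Of 14 tested sensors and adaptors, STING1 (0.36, SE 0.06, adjusted p = 0.00018) and IKBKE (0.31, SE 0.09, adjusted p = 0.017) rose. Among all genes tested 12% were called higher and 7.52% lower on the panel mean. The counts for signal transducers, negative regulators and sensors lie near these shares. Among 50 further interferon-stimulated genes, 15 rose (12% of all genes) and 6 fell (7.52%). The largest rises were those of GBP5, a guanylate-binding protein (1.97, SE 0.20, adjusted p = 9.3e-08), IFI30, a lysosomal thiol reductase (1.87, SE 0.36, adjusted p = 0.00048), ISG20, an exonuclease (1.72, SE 0.28, adjusted p = 7.0e-05), and GBP2 (1.07, SE 0.14, adjusted p = 4.6e-06). WARS1, a tRNA synthetase (-0.78, SE 0.12, adjusted p = 4.0e-05), and APOL6 (-0.36, SE 0.04, adjusted p = 1.9e-07) had the largest falls.

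Other genes also differed between the arms. Of 22 tested monocyte and macrophage markers, 11 rose (12% of all genes) and CCR2 fell (7.52%) on the panel mean. S100A8 rose by 2.05 (SE 0.22, adjusted p = 2.7e-07) and CD86 by 1.84 (SE 0.10, adjusted p = 1.5e-12), while CD14 reached at most 5.36 and did not pass the filter. The summed level of the 23 markers was higher in every decitabine library than in every DMSO library of the same line. It ran from 29547 to 30715 with DMSO to 48228 to 49082 in SKM-1, and from 12387 to 13458 with DMSO to 25423 to 28420.0 in OCI-AML3. A sum mostly follows its most abundant genes. Of the 22 tested, limma called 7 higher and 2 lower in SKM-1 (5.7% and 3.32% of all genes). In OCI-AML3 it called 5 higher and 0 lower (3.74% and 1.64%). On the panel mean 5 of 12 lymphoid markers, 3 of 6 tested epithelial markers and 1 of 4 tested fibroblast markers rose, against 12% of all genes. A count of 1 of 4 cannot be set apart from that share. Of 4 tested plasmacytoid dendritic cell markers limma called 0 on the panel mean, and 0 at an unadjusted p below 0.05. The summed level of the 7 epithelial markers was higher in every decitabine library than in every DMSO library of the same line in all lines but OCI-AML3, and ran from 501 to 548 with DMSO to 1236 to 1300.5 in SKM-1 and from 429 to 593 to between 713 and 1174 in MOLM-14. Of the 6 tested, limma called 3 higher in SKM-1 (5.7% of all genes), 1 in KG-1 (3.12%) and 1 in OCI-AML3 (3.74%). It called 0 higher in MOLM-14 (6.26%) and MOLM-13 (1.45%). The share of the total taken by mitochondrial genes was also higher with decitabine, without overlap, in SKM-1 (15.5% to 18.2% against 13.7% to 15.1%), MOLM-14 (10.5% to 11.5% against 8.06% to 9.09%) and MOLM-13 (18.2% to 19.1% against 12.5% to 14.1%). It overlapped between arms in OCI-AML3 (9.97% to 15.6% against 8.63% to 11.0%) and KG-1 (11.8% to 12.6% against 10.4% to 12.1%). The part of these markers and of the mitochondrial share in the results was not tested.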

How the data were processed

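RNA was measured in 42 labelled libraries of 7 lines; the deposited table has columns for 30 of them, in 5 lines, and the 12 libraries of OCI-AML2 and THP-1 were not analysed here. Another 12 columns of the table belong to no labelled sample and were not used. The labels name the columns of MOLM-13 and SKM-1. The other columns were assigned by their line, letter and number, the letters read as for MOLM-13 and SKM-1. MOLM-14 is given by labels and column names but is absent from the design text. The deposited signal is, by the authors' name for the table, estimated counts divided by DESeq2 normalization factors. Per the submitters' processing notes the tools were limma, DESeq2, featureCounts, STAR and Salmon 1.2.1, and the build hg38; their roles, the annotation release and the strand setting are not given in the sources used here. Per the labels' protocols, libraries came from a SMARTer stranded total RNA kit and were read as single reads of 50 bases.

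Whole reads could not be recovered from the deposited signal (54.1% to 67.5% of low values were whole multiples, tolerance 0.02), so no count model was fitted. The filter kept genes at 10 or more in 3 or more libraries, and limma 3.58.1 (R 4.3.3) was fitted to log2(value + 1) with 10 group means, an intensity trend and robust variances. Depth was estimated from the most common value above 0 and below 20 in each library, taken as the worth of 1 read. This worth roughly sets the precision of a low value. Smaller values occur, such as 0.246 for IFI27 in SKM-1 DMSO replicate 3, where 1 read was worth 0.283. The members, lists and tests were chosen with earlier results of these data known. Values per library were given for the 8 largest rises and the largest falls called on the panel mean, the largest called rise and fall in each line, the 6 smallest F-test p values and genes near 0 with DMSO that were called. Other genes came from lists of pathway genes and cell markers, at most 4 named a list by the size of the called difference, and IFNAR1 and IFNAR2 were named as the receptor; some listed genes are not reported here. Other values per library, those of GBP1 in MOLM-13 and EPSTI1 in SKM-1 and single DMSO levels among them, were chosen after they were seen. The alternatives changed the pseudocount, the filter, the scaling, library weights, the replicate block, the threshold and the libraries or lines left out. Sharing of 50-base stretches was computed on GENCODE 29 transcripts. The fits were tested on simulated data.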

Additional observations from a re-analysis of the deposited data

Results flagged for a closer look

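A test of the difference between lines picked out 15 genes whose response to decitabine was unequal among the 5 lines. The F-test of limma, Benjamini-Hochberg adjusted over all genes, gave an adjusted p of 5.8e-07 for SAMD9L, 3.9e-06 for LGALS3BP and 9.4e-05 for XAF1. It gave 0.00012 for IFIT3, 0.00026 for IRF7, 0.00034 for IFI6, 0.00035 for SAMD9 and 0.00088 for IFIT5. The values were 0.0020 for PARP9, 0.0024 for UBE2L6, 0.0043 for IFI35 and 0.0058 for RSAD2. They were 0.011 for IFITM2, 0.016 for IFIT2 and 0.049 for IFIT1, the last of them just inside the threshold. In IFIT1 the differences ran from -0.70 (SE 0.23, adjusted p = 0.083) in OCI-AML3 to 0.54 (SE 0.23, adjusted p = 0.14) in MOLM-14, neither of them called. The response of IFIT3 also differed between the sister lines, at -1.40 (SE 0.24, adjusted p = 0.0028) for MOLM-13 minus MOLM-14. Line, depth and range of sample numbers cannot be told apart in that contrast.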

How the results depend on the processing

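Of 1748 panel means of the 38 genes under alternatives, 1591 kept their direction and side of the threshold, 93 lost a call, 30 gained one, 4 reversed and 30 changed sign while not called. The 4 reversals were SAMD9L at -0.055 without SKM-1 and at -0.051 in OCI-AML3, MOLM-14 and KG-1 alone, and DTX3L at 0.11 and XAF1 at 0.60 in MOLM-13 and SKM-1 alone. OCI-AML3, MOLM-14 and KG-1 alone called 5 genes higher on the panel mean. Without SKM-1 the panel mean called 12 higher, and without MOLM-13 or without OCI-AML3 it called 1 lower.

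Counts below are genes called higher, then lower, with limma. At an adjusted p below 0.01, KG-1 had 2 and 0, MOLM-14 had 8 and 0 and OCI-AML3 had 0 and 0, and below 0.1, MOLM-13 had 5 and 1 and OCI-AML3 4 and 4. Fits on single lines gave 1 and 1 in KG-1, 9 and 3 in MOLM-13, 0 and 0 in MOLM-14, 0 lower in OCI-AML3 and 25 and 1 in SKM-1. Library weights gave 13 and 2 in MOLM-13, 0 lower in MOLM-14, 0 and 1 in OCI-AML3, 27 and 1 in SKM-1, 24 in the F-test, 4 between MOLM-13 and MOLM-14 and 20 above the other lines in SKM-1. Without the 6 shallow libraries there were 11 and 2 in MOLM-13, 1 lower in SKM-1, 3 between the sister lines and 14 above the other lines in SKM-1. The filter on the mean gave 1 lower in MOLM-13, and no filter 0 lower in MOLM-14. A pseudocount of 0.5 gave 1 higher in OCI-AML3, and a pseudocount of 5 gave 1 lower in MOLM-13 and 4 higher in OCI-AML3. Quantile normalisation gave 0 higher in MOLM-13 and 0 lower in MOLM-14, and scaling without mitochondrial genes 5 higher in MOLM-13 and 0 lower in MOLM-14. Quantile normalisation ended the calls of LGALS3BP, IFI6 and IFIT5 in MOLM-13, of IRF9, IRF7, MX2, RSAD2, IFI27 and XAF1 in MOLM-14 and of IRF9 in SKM-1, at an adjusted p of 0.056 to 0.45. It moved the median of all genes in SKM-1 from 0.08 to -0.08. Its cause, and that of the other changes, was not tested.

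Leaving out 1 library at a time gave 19 to 22 higher and 2 lower on the panel mean, 2 to 4 and 0 to 2 in KG-1, 1 to 4 and 0 to 2 in MOLM-13, 9 to 16 and 0 to 1 in MOLM-14, 1 to 4 and 0 to 4 in OCI-AML3 and 13 to 18 and 0 in SKM-1. It gave 14 to 17 in the F-test, 1 to 4 between the sister lines, 24 to 27 for OCI-AML3 above and 10 to 12 for SKM-1 below each other line with DMSO, 6 to 9 for OCI-AML3 below the other responses and 6 to 8 for SKM-1 above them. The lowest counts came without MOLM-14 decitabine replicate 2 and KG-1 decitabine replicate 3 or DMSO replicate 1, and the 4 between sister lines without MOLM-14 DMSO replicate 3. OCI-AML3 had 1 higher without its decitabine or DMSO replicate 1 or 2, 0 lower without either replicate 2, and 4 higher without MOLM-14 DMSO replicate 2. KG-1 had 0 lower without decitabine replicate 2 or DMSO replicate 3. With the replicate number as a block, OCI-AML3 had 1 higher, the call of IFI27 ended in OCI-AML3 (adjusted p = 0.071) and MOLM-14 (0.069), as did those of IRF7 in MOLM-14 (0.059) and of IFITM1 (0.092) and IFI35 (0.067) on the panel mean, while BST2 (0.026), GBP1 (0.0072) and EPSTI1 (0.0024) gained one there. Numbers were not taken as pairs in the main fit. Same-numbered libraries correlated in their deviations between -0.0225 and 0.153, and 12 of 15 correlated best with their own number. The lines were uneven in this. OCI-AML3 (0.0703 to 0.125), MOLM-14 (0.0852 to 0.127) and KG-1 (0.097 to 0.153) each had 3 of 3. SKM-1 had 2 of 3 (-0.0033 to 0.0408) and MOLM-13 had 1 of 3 (-0.0225 to 0.0228). The main fit leaves out any link by number in the lines with 3 of 3, and its source was not tested.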
